A study of Mus musculus with 9 samples.

Results

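Predicted loci, the gene models that carry a provisional name of Gm and a number or a RIKEN clone name ending in Rik, were followed through the first hour of lipopolysaccharide (LPS) in IMM, an immortalized macrophage line of the mouse with genotype WT. Of 29745 such loci among 55450 genes in the count table, 91 were chosen by their own counts at 0 and 30 min: a mean of at least 1 CPM (the count relative to the plain total of its library) at 30 min, a mean at least 1.5 times that at 0 min, and all 3 libraries at 30 min above all 3 at 0 min. The 91 comprised 74 Gm and 17 Rik loci, and 1714 predicted loci reached the mean of 1 CPM at 30 min. Total RNA was sequenced before LPS (0 min) and after LPS at 100 ng/mL for 30 and for 60 min, with 3 libraries each time, described by the submitters as biological replicates. The series holds no library kept without LPS for 30 or 60 min, so LPS, handling and time cannot be told apart. All the cells are of a single line, and in bulk RNA fewer cells of a kind and less RNA per cell cannot be told apart.

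LPS, from the outer membrane of Gram-negative bacteria, is sensed by macrophages through Tlr4 and switches on genes through factors such as NF-kB, AP-1 and CREB within minutes. Most predicted loci are annotated from cDNA or EST clones or from sequence likeness, without a known product. Many lie inside introns of protein-coding genes and on the same strand, and the libraries, from total RNA freed of ribosomal RNA, hold unspliced precursor RNA beside mature RNA. RNA polymerase reads a gene from its start, so introns near the start are copied before those far downstream, and spliced introns are usually degraded quickly. For a locus that lies wholly in an intron of its host, reads from a transcript of its own and reads from the unspliced host RNA cannot be told apart in this count table.

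The libraries held 26867428 to 30402308 counts each, and 10 counts were worth 0.329 to 0.372 CPM. The marker genes of macrophages (10 genes, among them Csf1r, Adgre1 and Spi1) summed to 2056 to 2141 CPM at 0 min, 2190 to 2215 at 30 min and 2208 to 2285 at 60 min, while the 6 lists for fibroblasts, T cells, B cells, neutrophils, epithelial and endothelial cells each stayed at or below 2.20 CPM in every library. The first library at 30 min stood apart from the other two. Its 107 early LPS response genes summed to 8907 CPM, against 7094 and 7244 in the other two, and 2775 to 2847 at 0 min. The same library held the highest 30 min value in 50 of the 91 loci, against 21 and 20 for the others. How often it was highest over all genes tested was not counted. Several results that rest on the first 30 min library are therefore given with and without it.

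What the 91 loci share in annotation was described first, since the choice did not use it. In GENCODE M21 on GRCm38 (mm10), 43 of the 91 (47.3%) were of the class TEC, clone-based models that still await experimental evidence, against 33.6% of the 2800 other predicted loci that passed the count filter. Single-exon models made up 76.9% of the 91 and 62.1% of the others. The rest were 12 lincRNAs, 12 processed pseudogenes, 6 antisense RNAs, 6 processed transcripts, 5 small nuclear RNAs (snRNAs), 3 sense-intronic RNAs, 3 protein-coding models and 1 bidirectional promoter RNA. By position, 47 of the 91 (51.6%) lay in introns of a protein-coding host on the same strand, all 47 wholly inside it, against 35.8% of the others (1003 loci, 7 of which reach beyond the host). A further 22 were intergenic, 13 overlapped a protein-coding gene on the other strand, 4 overlapped exons of a same-strand gene, 4 were divergent from a protein-coding start within 2 kb, and 1 lay within 10 kb downstream of a gene. The 4 with exon overlap were Gm6377 in Sh3bgrl, Gm15832 in Rnf149, Gm37285 in Kansl1l and Gm42793 in Spp1, and the downstream locus was Gm44751, beyond Ctsc.

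The sequences that bear on how these loci can be read are of 2 kinds. The first are models that are copies of other genes, where reads cannot be placed with certainty. All 5 snRNA members are 191 bases long and carry the sequence of the U2 spliceosomal RNA. Gm23472 (chr1:72236946-72237136, plus strand) and Gm23444 (chr11:83271498-83271688, plus strand) have 0 mismatches, so only the former is shown. The others are printed with the bases that differ from Gm23472 in capitals: Gm23971 at chr11:101645740-101645930 on the minus strand, Gm25939 at chr1:72255008-72255198 on the plus strand, and Gm22973 at chr12:59040335-59040525 on the plus strand.
Gm23472: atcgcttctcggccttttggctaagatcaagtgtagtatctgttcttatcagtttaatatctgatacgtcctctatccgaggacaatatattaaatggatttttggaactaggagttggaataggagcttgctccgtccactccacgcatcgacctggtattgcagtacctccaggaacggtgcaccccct
Gm23971: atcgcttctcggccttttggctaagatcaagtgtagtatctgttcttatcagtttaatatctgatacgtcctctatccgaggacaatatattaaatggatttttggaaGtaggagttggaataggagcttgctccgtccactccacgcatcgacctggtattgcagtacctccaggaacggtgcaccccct
Gm25939: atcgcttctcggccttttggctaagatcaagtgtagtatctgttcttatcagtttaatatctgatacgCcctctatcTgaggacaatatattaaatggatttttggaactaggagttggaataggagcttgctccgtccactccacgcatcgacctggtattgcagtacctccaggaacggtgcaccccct
Gm22973: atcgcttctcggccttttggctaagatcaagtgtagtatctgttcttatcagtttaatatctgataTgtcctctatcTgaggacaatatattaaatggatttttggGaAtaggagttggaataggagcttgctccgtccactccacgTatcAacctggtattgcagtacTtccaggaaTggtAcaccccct
Counted from the 5′ end of Gm23472, Gm23971 differs by C109G, Gm25939 by T69C and C78T, and Gm22973 at 9 positions. The first 100 bases of the processed pseudogene Gm12671 (chr4:91852570-91852669, minus strand) are shown because the whole model, 1002 bases, was 100% identical to the transcript of Gapdh, a glycolytic enzyme.
Gm12671 first 100 bases: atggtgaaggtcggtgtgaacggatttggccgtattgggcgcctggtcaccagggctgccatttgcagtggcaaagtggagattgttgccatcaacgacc

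The second kind are single-exon models inside introns. The last 100 bases of the members with some of the highest levels at 30 min show how such models end, with the AATAAA signal that precedes many cleavage and polyadenylation sites in capitals where present. Gm37084 lies in an intron of Mapkapk2, and the stretch is chr1:131086252-131086351 on the minus strand. Gm45222 lies in an intron of Picalm, and the stretch is chr7:90150155-90150254 on the plus strand.
Gm37084 last 100 bases: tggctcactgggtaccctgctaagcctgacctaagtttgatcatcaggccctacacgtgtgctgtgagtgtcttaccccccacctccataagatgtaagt
Gm45222 last 100 bases: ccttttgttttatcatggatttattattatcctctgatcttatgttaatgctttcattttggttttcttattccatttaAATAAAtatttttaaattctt
AATAAA stood within the last 50 bases of 7 of the 47 intronic members (14.9%) and of 148 of 1003 other tested intronic predicted loci (14.8%). Median GC content was 42.8% and 42.9%. The intronic members thus did not stand apart from other intronic models in either feature.

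The 91 loci were low in level. Their mean CPM had a median of 1.49 at 0 min (0 to 27.4), 4.03 at 30 min (1.00 to 144) and 3.05 at 60 min (0.123 to 91.6). At 30 min, 21 reached 10 CPM and 24 lay under 2 CPM. Summed over the 91, the 0 min libraries held 295, 314 and 318 CPM, the 30 min libraries 874, 765 and 769, and the 60 min libraries 749, 759 and 741. Gm37084 alone held 17.9% of the sum at 30 min. Without it the sums were 268 to 290, 626 to 716 and 651 to 666 CPM, so the sums at 30 and 60 min overlapped while single loci rose or fell. Per kilobase of exon, the scale on which genes can be compared, the snRNA copies were highest at 30 min, with Gm25939 at 67.0 and Gm23971 at 48.8 CPM per kb, and Gm37084 was highest among the models outside that family at 24.3 CPM per kb. Without the second library at 30 min Gm23971 stood at 23.9 CPM per kb, below Gm37084.

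The difference between 30 and 0 min chose the loci and is described without a test. The median ratio of the means was 2.01. In edgeR's quasi-likelihood fit over all 9 libraries, with Benjamini-Hochberg adjusted p under 0.05 as the threshold for a call, 75 of the 91 were called higher at 30 min, against 4.84% of all 14246 genes tested, and 0 were called lower, against 3.35%. Nothing is read from these counts. All 91 passed the count filter, as their floor at 30 min ensured. In the authors' deposited table for 30 min, 65 of the 91 were called higher and 0 lower, against 3.8% and 2.28% of the 14456 genes with an adjusted p there. In the authors' deposited table for 60 min, 52 were called higher and 0 lower, with 2 lacking an adjusted p, against 10.0% and 7.84% of 14897 genes. The values just inside the rule were 1.00 CPM for Gm14548, 1.11 for Gm16074 and 1.16 for Gm37019, and just outside it were 0.987 for Gm26660, 0.969 for Gm25776 and 0.967 for Gm43267. For the ratio, Gm47588 and Gm22973 (both 1.51) and Gm37019 (1.52) were just inside, while Gm37023 and Gm6206 (both 1.49) and Gm23262 (1.47) were just outside. A further 15 predicted loci passed both thresholds with overlapping groups and were not members.

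**Figure D1:**
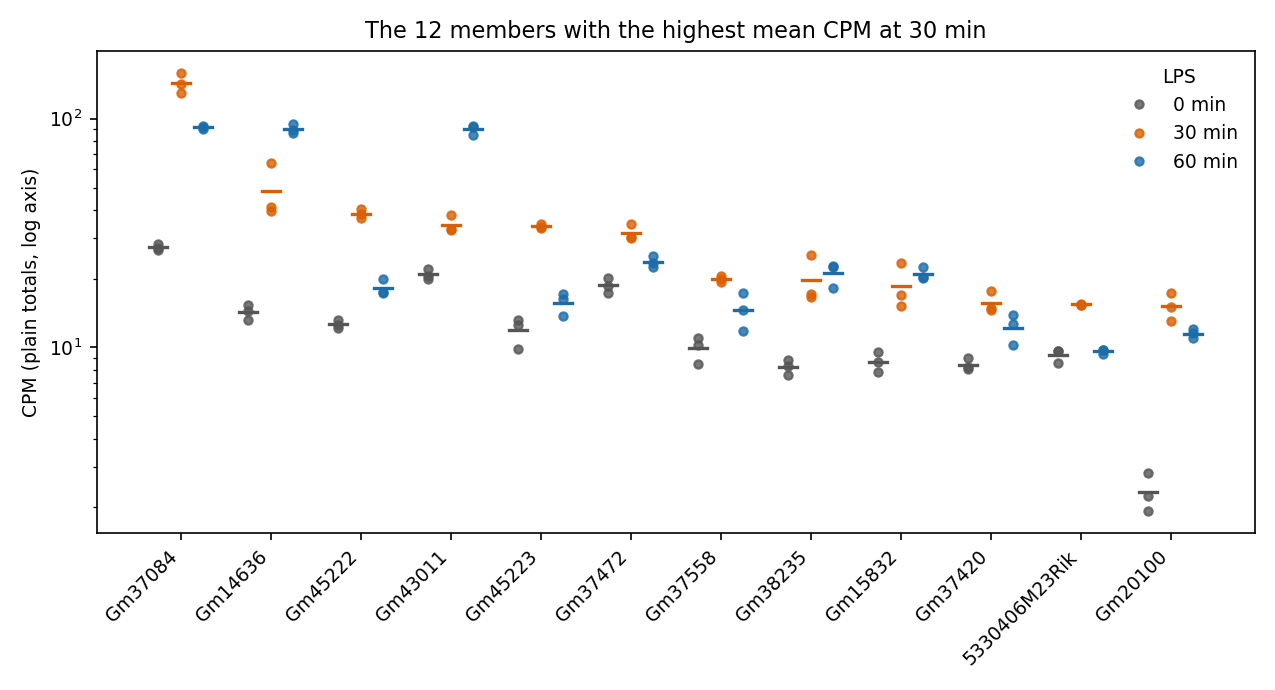
CPM over the plain library total (log axis) in each library for the 12 members with the highest mean at 30 min, with 0 min in grey, 30 min in orange and 60 min in blue; each point is a library and each bar the mean of 3. Gm14636 and Gm43011 are highest at 60 min, whereas Gm37084, Gm45222 and Gm45223 are lower at 60 min than at 30 min.

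The members split by what followed from 30 to 60 min. At 60 min 12 of the 91 (13.2%) were called higher than at 30 min, against 8.87% of all genes tested, and 34 (37.4%) were called lower, against 7.65%, while 45 were not called. The 60 min libraries were not used in choosing the loci, but the 30 min libraries were, and had to be high, so this comparison is not independent of the rule. The median log2 change from 30 to 60 min was -0.35 over the 91 and 0.03 over the 2800 other predicted loci, of which 283 were higher and 225 lower. All 3 libraries at 60 min lay below all 3 at 30 min in 45 members and above them in 13. Such separation was not counted over all genes tested, and the rule favours high values at 30 min, so nothing is read from it. Without the first library at 30 min the counts were 15 higher and 30 lower.

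Against 0 min, 63 of the 91 (69.2%) were called higher at 60 min, where 13.3% of all genes were, and 0 lower, where 11.7% of all genes were. Here too the 0 min libraries had entered the rule. Of the 34 members that fell after 30 min, 18 were still called above 0 min and 16 were not. All 12 that rose further were above 0 min, and of the 45 with no call after 30 min, 33 were above 0 min and 12 were not. The mean at 60 min lay under that at 0 min in 7 members.

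**Figure D2:**
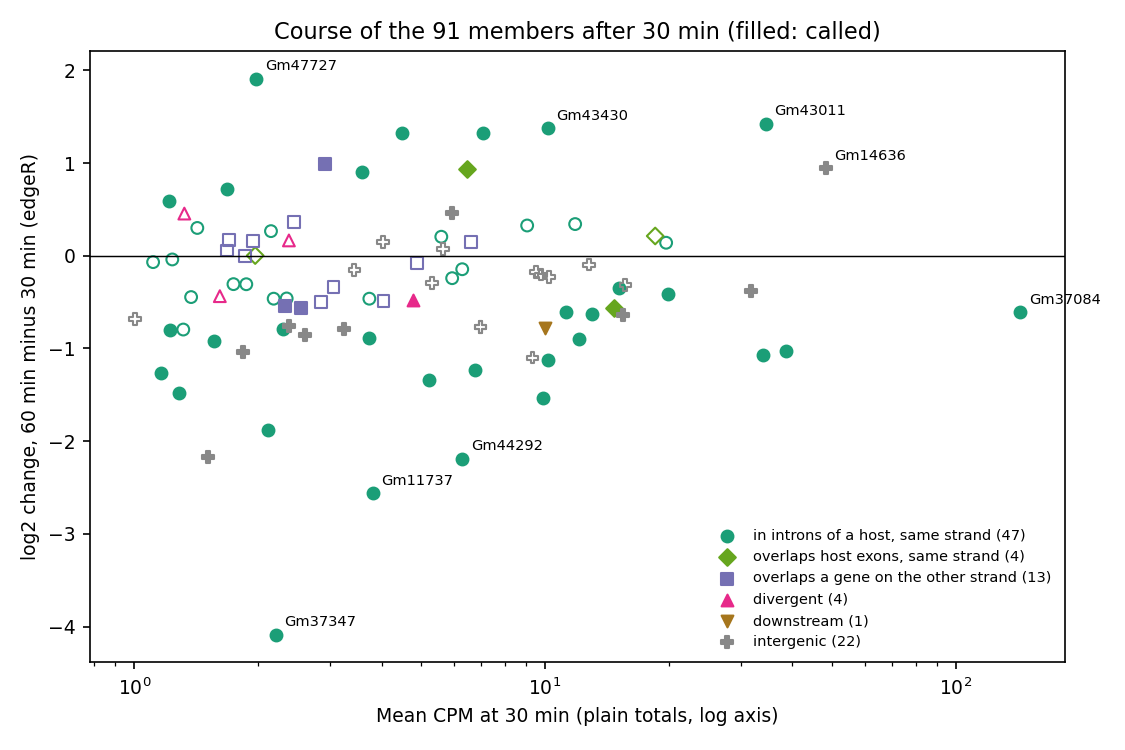
Log2 change from 30 to 60 min (edgeR) against mean CPM at 30 min (log axis) for the 91 members, with a marker shape and colour for each class of position and filled markers for calls at adjusted p under 0.05. The loci below the line include Gm37347 at -4.09 and Gm11737 at -2.56, and those above it Gm47727 at 1.91 and Gm43011 at 1.42.

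Among the intronic members, 8 of 47 rose and 22 fell from 30 to 60 min, with a median log2 change of -0.46. Of the 1003 other tested intronic predicted loci, 161 rose and 135 fell, with a median of 0.03, so the share of risers was alike. The most abundant was Gm37084 (chr1:131086252-131092149), in an intron of Mapkapk2, which encodes a kinase downstream of p38 that acts on cytokine mRNAs. Gm37084 stood at 27.3, 26.6 and 28.3 CPM at 0 min, 159, 129 and 142 at 30 min, and 92.3, 92.8 and 89.7 at 60 min. The 3 times did not overlap. From 30 to 60 min it fell by 0.61 on the log2 scale (SE 0.06, edgeR adjusted p = 6.09e-06), and at 60 min it remained 1.81 above 0 min (adjusted p = 8.9e-11). The host mRNA moved far less, from 202 to 221 CPM at 0 min to 229 to 233 at 30 min and 277 to 280 at 60 min, with log2 changes from 0 min of 0.16 (adjusted p = 0.0088) and 0.47 (adjusted p = 1e-07).

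Picalm, a clathrin assembly gene, held 3 members. Gm45223 (chr7:90132492-90137629), 2.28 kb from the start of the host, had 9.86, 12.6 and 13.3 CPM at 0 min, 33.8, 34.7 and 33.4 at 30 min, and 17.1, 16.3 and 13.7 at 60 min. Gm45222 (chr7:90145948-90150254), at 15.7 kb, had 12.1, 13.2 and 12.5, then 36.6, 38.4 and 40.4, then 17.4, 19.998 and 17.4 CPM. Both were high in all 3 libraries at 30 min and near their starting level at 60 min, although still above it. They fell from 30 to 60 min by 1.07 (SE 0.09, edgeR adjusted p = 1.74e-06) and 1.03 (SE 0.07, adjusted p = 1.26e-07) on the log2 scale. Gm45221 (chr7:90185927-90188198), at 55.7 kb, had 6.81, 7.47 and 8.49 CPM at 0 min, 14.9, 9.84 and 10.8 at 30 min, and 12.8, 16.3 and 14.6 at 60 min. Its groups at 30 and 60 min overlapped, with a log2 difference of 0.34 (SE 0.14, adjusted p = 0.117).

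Camk2d, a calcium and calmodulin dependent kinase, also held several predicted loci. Its member Gm43011 (chr3:126600029-126604461), 3.73 kb from the start, had 20.6, 22.0 and 19.99 CPM at 0 min, 37.9, 32.9 and 32.5 at 30 min, and 92.2, 84.8 and 92.6 at 60 min. The 3 times did not overlap, and it rose by 1.42 on the log2 scale after 30 min (SE 0.06, edgeR adjusted p = 4.86e-09). A further 5 loci of the same host and strand were not chosen at 30 min but were called higher from 30 to 60 min, among them Gm43010 at 29.6 kb (10.4, 14.1 and 44.7 mean CPM at the 3 times) and Gm43009 at 48.2 kb (9.10, 9.50 and 31.8). Gm42515 at 141 kb went from 5.68 and 6.16 to 8.17 CPM and was called, whereas Gm42514 at 150 kb (1.99, 2.40 and 2.81) was not. The Camk2d mRNA itself was not called at 30 min (log2 0.08, adjusted p = 0.3) and was called at 60 min with a small change (log2 0.11, adjusted p = 0.049).

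Kansl1l, related to a subunit of a chromatin-modifying complex, held members nearer its start and other loci farther in. The member 6820402A03Rik, 21.3 kb from the start, had means of 2.90, 5.94 and 4.88 CPM at 0, 30 and 60 min. Gm38387 at 45.7 kb and Gm37570 at 48.8 kb, which are not members, had 1.17, 1.303 and 2.32 and 1.296, 1.18 and 2.78 CPM. Those 2 were higher at 60 than at 30 min (edgeR adjusted p = 0.0228 and 0.000225), whereas the locus nearer the start was not called (log2 -0.24, adjusted p = 0.116). In Homer1, a synaptic scaffold gene, both members lay near the start, Gm47075 at 12.4 kb and Gm47088 at 17.8 kb, and both fell after 30 min, by 0.88 and 0.79 on the log2 scale. Vps13b held the member Gm7968 at 218 kb, with means of 0.873, 1.38 and 0.982 CPM, and other loci from 197 to 489 kb. None of these Vps13b loci was called between any of the times. In Elmsan1 the order differed. Gm47447 at 2.74 kb, not a member, had low means of 0.685, 0.379 and 0.302 CPM. It was called lower at 60 than at 0 min (log2 -1.11, edgeR adjusted p = 0.0423). The member Gm19327, farther in at 31.1 kb, had means of 6.21, 11.3 and 7.20 CPM.

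**Figure D3:**
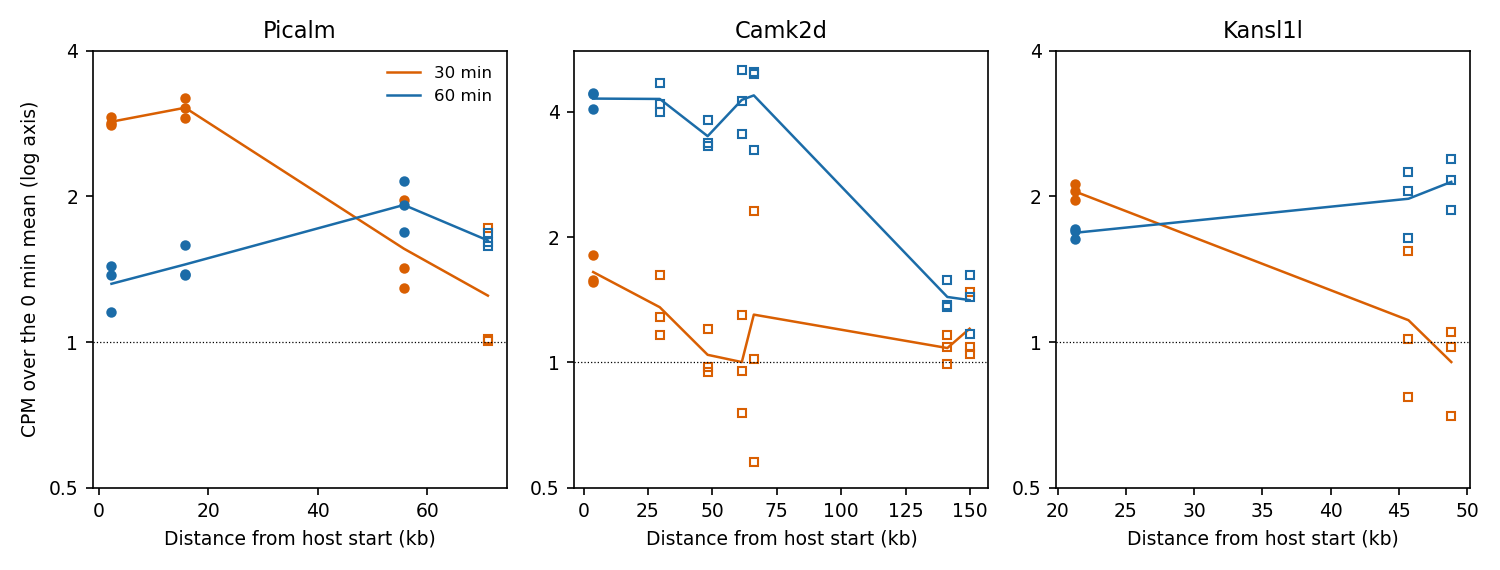
CPM in each library over the locus's 0 min mean (log axis) against distance from the host's start for predicted loci in introns of Picalm, Camk2d and Kansl1l, with 30 min in orange and 60 min in blue; filled circles are members, open squares other predicted loci of the same host, and lines join the means. In Picalm the 30 min line is higher near the start and the 60 min line higher at 55.7 and 71.1 kb, while in Camk2d the 60 min line lies higher at every locus. Other hosts with several predicted loci, such as Vps13b, Homer1 and Elmsan1, are not drawn, and in Elmsan1 the locus nearest the start did not rise.

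Over all 47 intronic members the distance showed no clear relation with the later course. In the nearest 16 loci (0.883 to 13.5 kb, median 4.25 kb), 3 rose and 10 fell after 30 min with a median log2 change of -0.62. In the next 16 (median 20.9 kb), 2 rose and 8 fell with a median of -0.48, and in the farthest 15 (33.2 to 218 kb, median 47.6 kb), 3 rose and 4 fell with a median of 0.14. Without the first library at 30 min these medians were -0.60, -0.46 and 0.19. Beside these counts, 161 of the 1003 other tested intronic predicted loci rose and 135 fell. Across the 47 loci the rank correlation of distance with the log2 change was 0.15, which is weak and is given as a description. In the 996 other intronic predicted loci that lie wholly inside their host it was -0.33. Loci of 1 host share its transcription, so they are not independent points, and distance was measured from the most upstream annotated start of the host.

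Beside Gm43011, 4 intronic members showed the largest rises after 30 min. Gm47727 lies in Aoah, which encodes the enzyme that removes fatty acyl chains from LPS. It had 1.23, 0.857 and 1.04 CPM at 0 min, 3.00, 1.61 and 1.34 at 30 min and 6.89, 7.99 and 6.95 at 60 min, and rose by 1.91 (SE 0.22, edgeR adjusted p = 2.44e-05). Its first 30 min library lay above the other two. Gm43430 lies in Nfkb1, the gene of the p105 precursor of an NF-kB subunit, and had 3.57, 2.68 and 3.82, then 16.1, 6.72 and 7.67, then 24.99, 25.2 and 26.8 CPM. It rose by 1.38 after 30 min (adjusted p = 0.000623), while Nfkb1 mRNA was not called at 30 min (log2 0.02, adjusted p = 0.78) and was 0.98 higher at 60 min (adjusted p = 2.2e-10).

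Gm37498 lies in Slc7a11, the cystine and glutamate exchanger. It had 1.67, 2.00 and 1.78 CPM at 0 min, 10.2, 5.15 and 5.83 at 30 min, and 18.0, 17.7 and 15.8 at 60 min. Gm45266 lies in Rab11fip1, an effector of recycling endosomes, and had 1.04, 1.18 and 0.973, then 6.62, 3.22 and 3.58, then 12.4, 11.1 and 9.29 CPM. Each rose by 1.32 after 30 min (edgeR adjusted p = 0.00013 and 0.000387), with no overlap between the times. Slc7a11 mRNA was called at 30 min (log2 0.60) and Rab11fip1 mRNA was not (log2 0.27, adjusted p = 0.17), and at 60 min they stood 1.54 and 2.18 above 0 min. In each of the 12 members called higher from 30 to 60 min, the first 30 min library was the highest of the 3 at that time. Without that library the log2 changes were 2.35 for Gm47727, 1.88 for Gm43430, 1.69 for Gm37498 and 1.73 for Gm45266. The part of that library's state in these values was not tested.

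The intronic members with the steepest falls after 30 min differed in where they ended at 60 min. Gm37347 (chr1:40088511-40091581) lies in an intron of Il1r2, the decoy receptor for interleukin-1. It had 0 counts in all 3 libraries at 0 min, 1.78, 2.63 and 2.24 CPM at 30 min, and 0.138, 0.164 and 0.0659 CPM at 60 min. Over the pooled libraries that is 0 against 188 counts, at least 62.5-fold higher at 30 min with a floor of 3 counts over the group, and 11 counts at 60 min. It fell by 4.09 on the log2 scale after 30 min (SE 0.35, edgeR adjusted p = 5.67e-06). Only the 30 min libraries, which the rule required to be high, held enough counts of Gm37347 to pass the count filter. The test of its fall is therefore not independent of the choice, and nothing is read from its p-value. At 60 min Gm37347 was still called above 0 min (adjusted p = 0.0083), at least 3.46-fold higher with the same floor. The host mRNA ran the other way: Il1r2 had 0.0372 to 0.134 CPM at 0 min, 0.140 to 0.453 at 30 min and 1.05 to 1.59 at 60 min, with a log2 change from 30 to 60 min of 1.99 (adjusted p = 0.0015).

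Gm11737, a pseudogene model in Cyth1, an exchange factor for Arf GTPases, had 0.521, 0.393 and 0.570 CPM at 0 min, 3.8, 4.13 and 3.48 at 30 min, and 0.483, 0.658 and 0.725 at 60 min. It fell by 2.56 (SE 0.19, edgeR adjusted p = 6.06e-07) to values that did not differ from 0 min at this depth (log2 0.40, adjusted p = 0.33), and Cyth1 mRNA, not called at 30 min, was 1.32 higher at 60 min. Gm44292 (chr6:86663188-86665551) lies in Mxd1, a repressor that pairs with Max. It had 1.15, 0.786 and 1.21, then 7.15, 6.37 and 5.36, then 1.28, 1.61 and 1.12 CPM, and fell by 2.19 (SE 0.18, adjusted p = 1.15e-06) to a level not called above 0 min (log2 0.42, adjusted p = 0.2), while Mxd1 mRNA stood at 12.3 to 13.8, 24.9 to 33.2 and 32.96 to 36.0 CPM. Both loci were high in every library at 30 min only. Both hosts had their highest mean at 60 min, although the Mxd1 values at 30 and 60 min overlapped.

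A fall after 30 min was also called for Gm17971 in Coq10b, a coenzyme Q binding protein of mitochondria, for Gm17024 in Ifrd1, a transcriptional co-regulator, and for Gm17849 in Osbpl8, a lipid transfer protein. Gm17971 had 0.261, 0.357 and 0.101, then 2.30, 2.07 and 1.99, then 0.551, 0.526 and 0.593 CPM, and fell by 1.88 (edgeR adjusted p = 0.000144). Gm17024 had 0.856, 1.29 and 0.973, then 7.43, 6.51 and 6.26, then 2.65, 3.26 and 2.40 CPM, and fell by 1.24 (adjusted p = 3.79e-05). Gm17849 had 2.68, 3.29 and 2.55, then 8.79, 9.66 and 11.2, then 3.27, 2.76 and 3.89 CPM, and fell by 1.53 (adjusted p = 3.35e-06). Each was highest in all 3 libraries at 30 min. At 60 min Gm17971 and Gm17024 were still called above 0 min (log2 1.29 and 1.48, adjusted p = 0.018 and 3.2e-05), whereas Gm17849 was not (log2 0.29, adjusted p = 0.21). Coq10b mRNA was 1.39 and 1.46 above 0 min at 30 and 60 min, Ifrd1 mRNA 0.60 and 0.82, and Osbpl8 mRNA 0.13 and 0.34, on the log2 scale.

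Milder intronic courses were those of Gm37558 in the importin gene Kpna4, Gm38235 in the phosphatase gene Phlpp1 and Gm20100 in Rab20. Gm37558 had 8.49, 10.2 and 11.04, then 19.3, 19.96 and 20.5, then 14.5, 17.3 and 11.8 CPM, and fell by 0.41 (edgeR adjusted p = 0.0238), a call lost without any of 4 single libraries (adjusted p up to 0.084). Gm38235 had 7.56, 8.29 and 8.86, then 25.2, 16.7 and 17.2, then 18.3, 22.5 and 22.6 CPM. Its log2 difference from 30 to 60 min was 0.14 (adjusted p = 0.564), and 0.36 (adjusted p = 0.0248) without the first library at 30 min. Kpna4 mRNA was not called at either time.

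Rab20, a small GTPase of phagosomes and endosomes, was the only partner of 2 named members on opposite strands. Gm20100 (chr8:11457471-11459742), in an intron on the same strand, had 2.23, 1.93 and 2.82 CPM at 0 min, 17.3, 13.0 and 15.1 at 30 min, and 10.99, 12.01 and 11.5 at 60 min. E230013L22Rik (chr8:11477929-11480241), a bidirectional promoter RNA that overlaps Rab20 on the other strand, had 0.521, 0.536 and 0.872, then 7.22, 6.09 and 6.48, then 6.89, 7.30 and 7.08 CPM. Rab20 mRNA had 8.00 to 10.2, 16.7 to 21.1 and 36.2 to 41.4 CPM. The mRNA rose by 1.06 at 30 min and by a further 1.09 after it on the log2 scale, whereas E230013L22Rik was already at its 60 min level at 30 min (log2 difference 0.15, SE 0.12, edgeR adjusted p = 0.473). Gm20100 fell by 0.35 after 30 min (adjusted p = 0.0435), a call lost in DESeq2, with the replicate number as a block (adjusted p = 0.0615) and without any of 6 single libraries, with adjusted p up to 0.193.

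The choice used the counts of the loci and not those listed for their hosts. Reads of an intronic locus and of unspliced host RNA cannot be told apart, so the hosts are not independent of the choice. Of the 44 hosts of intronic members, all tested, 17 (38.6%) were called higher at 30 min and 0 lower, with a median log2 change of 0.15. Of 660 tested hosts that held only other predicted loci, a set that leaves out every host of a member, 18 (2.73%) were higher and 6 lower. Of all 11313 tested protein-coding genes, 4.77% were higher and 2.35% lower. At 60 min, 31 of the 44 (70.5%) were higher than at 0 min and 0 lower, with a median of 0.36. Beside them, 101 of 660 (15.3%) were higher and 65 lower, and 13.6% and 11.4% of all tested protein-coding genes. From 30 to 60 min, 21 of the 44 were higher and 0 lower, against 50 higher and 51 lower of the 660. Of all tested protein-coding genes, 8.4% were higher and 7.3% lower over that time. Without the first library at 30 min, 13 of the 44 and 5 of 661 were higher at 30 min, and 30 of the 44 and 95 of 661 at 60 min. In all, 17 hosts were called at both times, 14 at 60 min but not at 30 min, and 13 at neither. A host and the locus within it were counted from the same libraries, and the difference between the 2 sets of hosts was not tested.

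The locus moved more than its host at 30 min in all 47 pairs, as the threshold on the ratio favours, and in 33 of 47 at 60 min. Of the 22 intronic members that fell after 30 min, 17 had a host above its 0 min level at 60 min, and 11 had a host that rose over the same 30 min. Of the 8 that rose, 6 had a host that rose. Among all 44 hosts, 31 (70.5%) were above 0 min at 60 min and 21 (47.7%) rose over the same 30 min. The counts for members that fell are near these shares, and nothing is read from them. Ell2, an elongation factor gene, is an example of a host called at 60 min but not at 30 min: its locus Gm48302 had 1.86, 2.11 and 2.58, then 12.5, 6.55 and 8.11, then 10.5, 11.1 and 11.5 CPM, and Ell2 mRNA 57.9 to 67.6, 57.3 to 66.3 and 129 to 143 CPM. Of the 107 genes listed as early LPS responders, 96 of 104 tested were higher at 30 min and 1 lower. Nfkb1 was the gene of that list that was a partner of a member. The list made up 104 of the 11313 tested protein-coding genes, and 75 partners were tested. A count of 1 is near that share, and nothing is read from it.

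**Figure D4:**
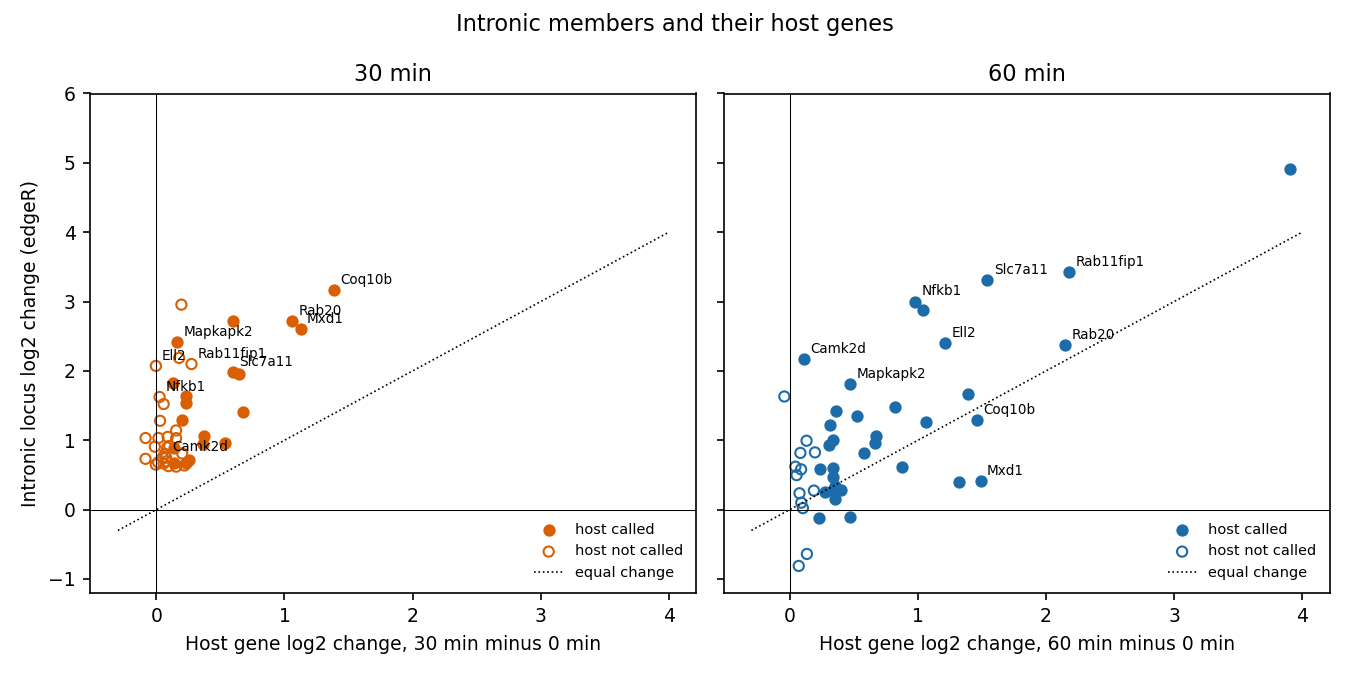
Log2 change from 0 min (edgeR) of the 47 intronic members (vertical) against that of the host (horizontal), at 30 min (left, orange) and 60 min (right, blue); filled points have a host called at adjusted p under 0.05, and the dotted line marks equal change. Gm37347, with 0 counts at 0 min, lies above the drawn range at 30 min and is not shown there. All 47 members, Gm37347 included, exceed their host at 30 min and 33 of 47 do at 60 min, with Mxd1 and Coq10b below the line at 60 min.

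Over all classes, 75 of 84 partner genes were tested, where the partner of an intergenic locus is the nearest protein-coding gene. At 30 min 27 (36%) were called higher and 0 lower, against 4.77% and 2.35% of 11313 tested protein-coding genes, and at 60 min 48 (64%) were higher and 0 lower, against 13.6% and 11.4%. Without the first library at 30 min, 19 were called at 30 min. Among partners of the classes outside introns, 4 of 12 were higher at 30 min for loci overlapping the other strand, 4 of 12 for intergenic loci, 1 of 4 for divergent loci and 2 of 4 for loci with exon overlap. The partners called at least 2-fold higher at 30 min were Mxd1, Rab20, Coq10b and Crem, a cAMP-responsive transcription factor gene. Gm6225, on the strand opposite to Crem, had 0.968, 0.822 and 0.939, then 2.93, 2.63 and 2.06, then 1.76, 1.87 and 1.38 CPM, and Crem itself 1.23 to 1.48, 1.72 to 3.73 and 3.06 to 4.62 CPM.

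Among the 22 intergenic members, which lay 1.07 to 1436 kb from the nearest protein-coding gene, 2 rose and 7 fell after 30 min, against 8.87% and 7.65% of all genes tested, so the number of risers was near the general share. Gm14636 (chrX:19156981-19167241), a spliced transcript of 3 exons, had 13.2, 14.4 and 15.3 CPM at 0 min, 64.0, 39.6 and 41.2 at 30 min, and 94.4, 89.5 and 86.8 at 60 min. It rose by 0.94 after 30 min (SE 0.13, edgeR adjusted p = 0.000141), or by 1.21 without the first library at 30 min, which lay above the other two. The nearest protein-coding gene, Tex13c3, was at 0 in all 9 libraries. The other intergenic riser was 4930430E12Rik, with 2.46 to 2.62, 5.64 to 6.24 and 7.44 to 8.24 CPM (log2 0.47, adjusted p = 0.0026).

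The TEC loci Gm37472 and Gm37420 on chromosome 14 lay on the same strand, 64617 and 54394 bases from Kcnrg, in a stretch chr14:61667220-61681494. Gm37472 had 17.4, 20.2 and 18.6, then 34.6, 30.2 and 30.4, then 22.5, 25.2 and 23.5 CPM, and fell by 0.38 (edgeR adjusted p = 0.00233). Gm37420 had 8.19, 9.04 and 8.05, then 17.7, 14.5 and 14.8, then 10.2, 13.8 and 12.6 CPM, with a log2 difference of -0.32 (adjusted p = 0.0704). The third intergenic TEC locus among the most abundant, 5330406M23Rik on chromosome 6, had 9.64, 8.57 and 9.63, then 15.4, 15.5 and 15.4, then 9.37, 9.70 and 9.75 CPM. Its values at 60 min overlapped those at 0 min, and it fell by 0.64 (SE 0.07, adjusted p = 1.84e-05).

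Of the 13 members that overlapped a gene on the other strand, 1 rose and 2 fell after 30 min, with a median log2 change of 0.00. Beside the 8.87% and 7.65% of all genes tested, counts this small do not set these loci apart. How the authors' counting used strand is not given in the sources used here, so reads of such loci and of their partners cannot be told apart with certainty. The riser, 2210406H18Rik opposite Mettl9, had 0.930, 1.5 and 1.38, then 3.8, 2.56 and 2.39, then 4.96, 5.56 and 6.39 CPM (log2 0.99, edgeR adjusted p = 0.00167), and Mettl9 mRNA was not called at either time. The 2 that fell were Gm6225 opposite Crem (log2 -0.56, adjusted p = 0.04995, a call lost under 10 of the alternatives) and Gm4262 opposite Litaf (log2 -0.54, adjusted p = 0.0297). Gm44851 opposite the protease gene Furin and Gm49774 opposite Hmga1, an architectural chromatin gene, showed a level at 60 min close to that at 30 min: 1.71 to 2.35 against 1.98 to 2.27 CPM, and 4.52 to 5.18 against 4.18 to 4.84 CPM.

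The 4 divergent members shared a start region with Ube2j1, Ndufaf3, Atxn1 and Lsm8. Only 4933421O10Rik, beside the ubiquitin-conjugating enzyme gene Ube2j1, fell after 30 min (2.01 to 2.31, 4.67 to 4.87 and 3.07 to 3.65 CPM, log2 -0.48, edgeR adjusted p = 0.0107). All 4 were above 0 min at 60 min. Among the loci overlapping host exons, Gm6377 in Sh3bgrl rose after 30 min (1.25 to 2.03, 5.18 to 7.57 and 10.6 to 13.1 CPM, log2 0.94, adjusted p = 0.000294), and Gm42793 in Spp1, the osteopontin gene, fell (3.98 to 4.56, 14.3 to 15.4 and 9.04 to 10.2 CPM, log2 -0.56, adjusted p = 0.000121). Gm15832 in the ubiquitin ligase gene Rnf149 had 7.82, 8.62 and 9.59, then 23.5, 17.0 and 15.1, then 20.3, 22.4 and 20.1 CPM, with a log2 difference from 30 to 60 min of 0.21 (adjusted p = 0.308). It was 0.43 and called without the first library at 30 min (adjusted p = 0.00566).

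Of the 12 processed pseudogenes, 9 lie in introns on the strand of their host. The protein-coding genes closest to them in sequence were not called at 30 min against 0 min. From 30 to 60 min Rnf4, closest to Gm16074 (91.9% identity), was called higher (log2 0.14, edgeR adjusted p = 0.014). Rps2, closest to both Gm17971 (86.1% identity) and Gm12366 (97.96%), had 1083, 1107 and 1076 mean CPM at 0, 30 and 60 min. Rpl21, closest to Gm11737 (79.4%), had 567, 526 and 513 CPM, and BC004004, closest to Gm47727 (83.7%), had 27.8, 27.7 and 28.3. Gm12671, identical to Gapdh, was listed at 0 in all 3 libraries at 0 min, at 2.01, 0.4996 and 2.03 CPM at 30 min and at 0, 0.435 and 0.513 at 60 min, while Gapdh had means of 2473, 2401 and 2291 CPM. The pooled counts of Gm12671 were 0, 128 and 29, at least 42.6-fold higher at 30 min with the same floor, and the share of reads the authors' program gave to such a copy is uncertain. Gm8818, 96.8% identical to 4930453N24Rik (33.3, 32.6 and 32.4 CPM), had 3 counts at 0 min, 242 at 30 min and 176 at 60 min, a ratio of 80.5 at 30 min with a 95% counting interval of 27.2 to 393. That interval covers counting in pooled libraries only. It leaves out the spread between libraries and the uncertain share of reads given to this copy.

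The 5 snRNA members, whose sequences are printed above, were 5.49% of the 91, and snRNAs were 0.857% of the other tested predicted loci. The 5 are near-identical copies that share reads and are not independent loci, so nothing is read from these shares. Gm23472 and Gm23444, identical in sequence, also had identical values in every library: 0.936, 3.54 and 0 CPM at 0 min, 5.43, 9.52 and 5.94 at 30 min, and 7.51, 0 and 4.49 at 60 min. The values at 60 min overlapped both other groups, and the difference from 30 to 60 min was not called (log2 -0.77, SE 0.75, edgeR adjusted p = 0.57). Gm23971 had 4.08, 18.8 and 5.04 CPM at 30 min against 2.69 to 3.21 at 0 min, with the second library at 30 min far above the other two. Gm25939 was steadier, at 7.62, 8.39 and 8.70, then 12.02, 12.1 and 14.3, then 11.8, 12.8 and 10.4 CPM, and was above 0 min at 60 min (log2 0.57, adjusted p = 0.00065). Reads that match several copies were shared among them by the authors' program, so the level of any 1 copy is uncertain.

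Promoter windows in RefSeq (GRCm38.p6, 250 bases before to 50 after a start, the most upstream window where a gene has several) were found for 12 of the 91 members and 34 of the 44 hosts, beside 20595 genes of the count table. Both strands were searched. The NF-kB motif, used by its name, was in 1 of 12 members, 3 of 34 hosts and 4.56% of all windows. CRE (TGACGTCA) was in 1, 3 and 2.20%, PU.1 (GAGGAAGT) in 2, 2 and 3.15%, the ISRE core by its name in 1, 1 and 3.39%, AP-1 (TGANTCA) in 0, 0 and 7.42%, and the SRF CArG box by its name in 0, 0 and 1.54%. The counts are small and nothing is drawn from them. The windows of the member with an NF-kB match, A630001O12Rik (chr8:126848770-126849069, plus strand), and of a host that holds both NF-kB and CRE matches, Arl5b (chr2:15055070-15055369, plus strand), are shown with the matches in capitals, in the order PU.1 and NF-kB in the former and NF-kB and CRE in the latter. These starts lie 9.79 and 5.93 kb inside GENCODE's most upstream start.
A630001O12Rik promoter: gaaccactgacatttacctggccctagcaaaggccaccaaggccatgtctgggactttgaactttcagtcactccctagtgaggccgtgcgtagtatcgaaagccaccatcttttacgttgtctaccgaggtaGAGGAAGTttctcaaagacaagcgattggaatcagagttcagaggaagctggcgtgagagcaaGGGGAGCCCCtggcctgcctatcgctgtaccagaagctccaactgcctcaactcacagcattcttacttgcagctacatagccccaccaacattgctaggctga
Arl5b promoter: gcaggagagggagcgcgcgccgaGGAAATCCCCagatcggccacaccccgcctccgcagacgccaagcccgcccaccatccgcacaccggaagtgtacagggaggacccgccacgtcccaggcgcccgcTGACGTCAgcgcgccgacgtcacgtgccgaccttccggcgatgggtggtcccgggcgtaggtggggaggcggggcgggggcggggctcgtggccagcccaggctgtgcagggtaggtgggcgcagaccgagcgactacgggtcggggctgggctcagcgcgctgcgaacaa
A630001O12Rik, an intergenic lincRNA, had 0.707, 0.571 and 0.738 CPM at 0 min, 1.81, 1.75 and 1.95 at 30 min and 0.793, 0.822 and 0.988 at 60 min, and fell by 1.04 after 30 min (edgeR adjusted p = 0.00192). Gm38257, in an intron of the small GTPase gene Arl5b, had 1.04, 1.39 and 1.64, then 5.37, 4.76 and 5.54, then 1.83, 2.14 and 2.04 CPM, and fell by 1.34 (adjusted p = 2.38e-05). Arl5b mRNA stood at 23.9 to 25.2, 33.6 to 43.2 and 38.8 to 44.7 CPM. Both loci were highest in all 3 libraries at 30 min. At 60 min Gm38257 was still called above 0 min (log2 0.62, adjusted p = 0.018) and A630001O12Rik was not (log2 0.43, adjusted p = 0.19).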

How the data were processed

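Total RNA of IMM cells was sequenced at 0, 30 and 60 min of LPS, and groups were taken from the labels. The authors deposited expected counts per gene, made with RSEM 1.3.1 after cutadapt 1.18 and STAR 2.7.0f on mm10, per the submitters' processing notes. Its annotation, settings and use of strand were not given in the sources used here. Since reads that match several genes are shared among them, values of near-identical copies are uncertain. The authors also deposited DESeq2 tables of log2 fold changes and p-values, per the file headers. The signal and score columns of those deposited tables (the authors' mean level and test statistic) were not used for any result.

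Between 5.04% and 5.32% of the count values of a library were not whole, and all were rounded for the tests. CPM used unrounded counts over plain totals. Main tests were quasi-likelihood tests of edgeR 4.0.16 in R 4.3.3, with all 9 libraries, TMM factors and filterByExpr (about 10 counts in the smallest group), two-sided, with Benjamini-Hochberg adjustment over 14246 genes. The SE was taken as the size of the log2 change divided by the root of its F statistic. The script recovered changes planted in simulated counts. Positions, hosts and transcripts came from GENCODE M21 and 55450 of 55450 identifiers matched it. Pseudogenes were aligned to transcripts with blastn 2.17.0.

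Named loci were the 12 highest at 30 min, the 12 with the largest ratio, the 6 with the largest and the 6 with the smallest change from 30 to 60 min, members with a partner called at least 2-fold higher at 30 min, and those at the thresholds. Others were chosen after their values were seen. The members and the gene lists were chosen with earlier results of these data known. The host counts at 60 min, the distance groups, the pseudogene alignments, the level of Gm23971 without 1 library, the restriction to loci wholly inside a host and the results without the first 30 min library were chosen after seeing the data. Alternatives were DESeq2 1.42.0, other scaling and count filters, a replicate term and leaving out each library.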

Additional observations from a re-analysis of the deposited data

Results flagged for a closer look

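For 22 named members the effect at 60 min differed from that at 30 min, as tested by the change from 30 to 60 min in edgeR's quasi-likelihood fit (adjusted p under 0.05). The 30 min libraries took part in the choice of the members, so a lower value at 60 min is not independent of it. The log2 changes below zero were -0.61 for Gm37084, -1.03 for Gm45222, -1.07 for Gm45223, -0.38 for Gm37472, -0.41 for Gm37558, -0.64 for 5330406M23Rik, -0.35 for Gm20100 and -4.09 for Gm37347. The changes of Gm20100, Gm37558, Gm12671 and Gm6225 were not called under every alternative: that of Gm12671 was lost under 6 of them, with adjusted p up to 0.463 in DESeq2. The other changes below zero were -2.17 for Gm12671, -1.88 for Gm17971, -2.56 for Gm11737, -1.24 for Gm17024, -2.19 for Gm44292, -1.53 for Gm17849 and -0.56 for Gm6225. Above zero were Gm14636 at 0.94, Gm43011 at 1.42, 2210406H18Rik at 0.99, Gm37498 and Gm45266 at 1.32, Gm43430 at 1.38 and Gm47727 at 1.91. The check for single outlying samples is not applied to groups of 3 libraries, so none was made.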

How the results depend on the processing

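The rule gave 91 members, 48 with a ratio of 2, 129 with a floor of 0.5 CPM, 67 with a floor of 2 CPM, 93 with totals scaled by TMM factors, and 94 to 110 when a library of 0 or 30 min was left out. With a fixed list of 91, calls from 30 to 60 min ran from 10 to 15 higher and from 24 to 40 lower over all alternatives, and calls at 60 min against 0 min from 54 to 63 higher; those at 30 min, which the rule used, ran from 63 to 81. DESeq2 gave 10 higher, 25 lower and 55 above 0 min, and leaving out the 9 near-identical copies, an alternative added after seeing the data, gave 11, 33 and 59. One member was called lower at 60 min than at 0 min without the first library at 0 min. Partners called higher ran from 19 to 30 at 30 min and from 44 to 49 at 60 min, scaling by total counts alone called 2 partners lower at 60 min, and 1 was called lower without the third library at 0 min. For single named members, 370 values under the alternatives kept their side of the threshold, 28 lost the call and 7 gained it, and none changed direction past the threshold. The losses were those of Gm12671 (adjusted p up to 0.463), Gm20100 (0.193), Gm37558 (0.084) and Gm6225 (0.189), and the gains those of Gm15832, Gm38235, Gm37420, Gm23444 and Gm23472. The cause of these changes was not tested. A level of 1 CPM is about 30 counts, so members near the floor have little depth.

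Replicate numbers are shared between the times in the labels, but libraries with the same number did not deviate together (correlations from -0.064 to 0.006 across genes), so the number was not taken as a pairing. With the replicate block, 11 members were called higher and 28 lower from 30 to 60 min, 60 were higher at 60 min than at 0 min, and 26 partners were higher at 30 min and 44 at 60 min. The block ended the calls from 30 to 60 min of Gm20100 (log2 -0.34, adjusted p = 0.0615), Gm12671 (log2 -2.12, adjusted p = 0.0696) and Gm6225 (log2 -0.56, adjusted p = 0.0538).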
